A study of Homo sapiens with 7 samples.

Results

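Proteasome subunit genes were taken as the genes whose symbol is PSMA, PSMB, PSMC, PSMD, PSME, PSMF or PSMG followed by a number, without pseudogenes and antisense genes. They came to 48 of the 19062 named genes on the array, measured by 63 of its 42405 gene probes, and the brightest probe by mean over the arrays stands for each gene. By class, assigned from the symbol, there were 8 alpha subunits and 11 beta subunits of the 20S core and 6 ATPases of the 19S cap. The others were 14 PSMD genes of the cap, 5 activators or inhibitors and 4 assembly chaperones with a PSMG symbol. The PSMD genes include PSMD10, itself an assembly chaperone of the cap. Of the 48 genes all but 1 were well above background on all 7 arrays, so 47 genes could be compared. The exception was PSMA8, an alpha subunit known from testis, which was above background on none.

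Expression was measured on single-colour Agilent arrays with total RNA of NCI-H520, an established human squamous cell lung carcinoma line. Cells received 6 µg of a pLKO.1 plasmid by liposome, were put under puromycin at 6 µg/mL after 12 h and were harvested at 72 h, controls included. The controls were an empty vector and a non-target shRNA, and the other plasmids were meant to silence a deadenylase, one of the enzymes that trim poly(A) tails. These were PARN, CNOT6, CNOT6L, CNOT7 and NOC, the last being nocturnin with the gene symbol NOCT. Each group had 1 array, so no difference for a single shRNA has a replicate check, and precision is limited by how many arrays there were. In the labels the CNOT6L shRNA carries the target accession of NOC, so what it was directed at is uncertain.

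All arrays lay on 1 slide, with both controls, PARN shRNA and CNOT6 shRNA in slide row 1 and CNOT6L, CNOT7 and NOC shRNA in slide row 2. Since row 2 held no control, slide row and the effect of those 3 shRNAs cannot be told apart. The scan of the NOC shRNA array was also extracted on another date than those of the other arrays. The 75th percentile of signal ran from 1366 (CNOT6 shRNA) to 3986 (CNOT7 shRNA), and 82.0% to 91.4% of probes were above background. The targeted mRNAs were at 45.8% (PARN), 89.6% (CNOT6), 63.0% (CNOT6L), 54.2% (CNOT7) and 74.3% (NOCT) of the control mean on the array of their own shRNA. Of 11 squamous and epithelial markers, SOX2, KRT6A, KRT8, KRT18, KRT19, EPCAM and CDH1 were above background on all 7 arrays. The squamous markers TP63, KRT5 and KRT14 were above background on 2, 4 and 1 arrays, and DSG3 on none.

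The proteasome is the large protease that degrades ubiquitin-tagged proteins. Its barrel-shaped core holds 3 kinds of proteolytic beta subunit, PSMB5, PSMB6 and PSMB7, and its cap unfolds substrates with a ring of ATPases. In cells exposed to interferon, PSMB8, PSMB9 and PSMB10 replace these subunits to form the immunoproteasome, which generates peptides for display on MHC class I molecules. Genes of the constitutive subunits are known to be controlled together by the factor NFE2L1.

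Levels are log2 processed signals relative to the 75th percentile of their array, so a difference of 1 is a 2-fold difference. Levels of different probes are not comparable with each other. A gene was called higher or lower with an shRNA when both control arrays lay at least 2-fold away from it on the same side.

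None of the 47 proteasome genes was called with any of the 5 shRNAs. Among all named genes 0.16% were called higher and 0.348% lower upon PARN silencing, 0.26% and 0.243% with the CNOT6 shRNA, and 0.215% and 0.69% with the CNOT6L shRNA. The shares were 0.21% and 0.811% upon CNOT7 silencing and 0.32% and 1.07% upon NOC silencing. At shares this low, a count of 0 among 47 genes lies close to the background.

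The spread of the subunit mRNAs over the arrays was small. The highest and lowest of the 7 arrays were less than 2-fold apart for 45 of 47 genes (95.7%), beside 80.3% of the 16456 named genes above background on all arrays. Among the 4114 of those with the highest mean signal, the share was 95.2%, so the narrow range was also that of other bright genes. The median SD over the 7 arrays was 0.16 log2 for the proteasome genes, 0.23 for all named genes and 0.17 for the 4114 brightest. The 2 genes with a range above 2-fold were both immunoproteasome subunits, PSMB9 with a range of 1.45 log2 and PSMB8 with 1.27. The narrowest ranges belonged to PSMD8 (0.12 log2), a cap subunit, PSME2 (0.13), a subunit of the PA28 activator, and PSMD4 (0.19), a ubiquitin receptor of the cap.

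**Figure D1:**
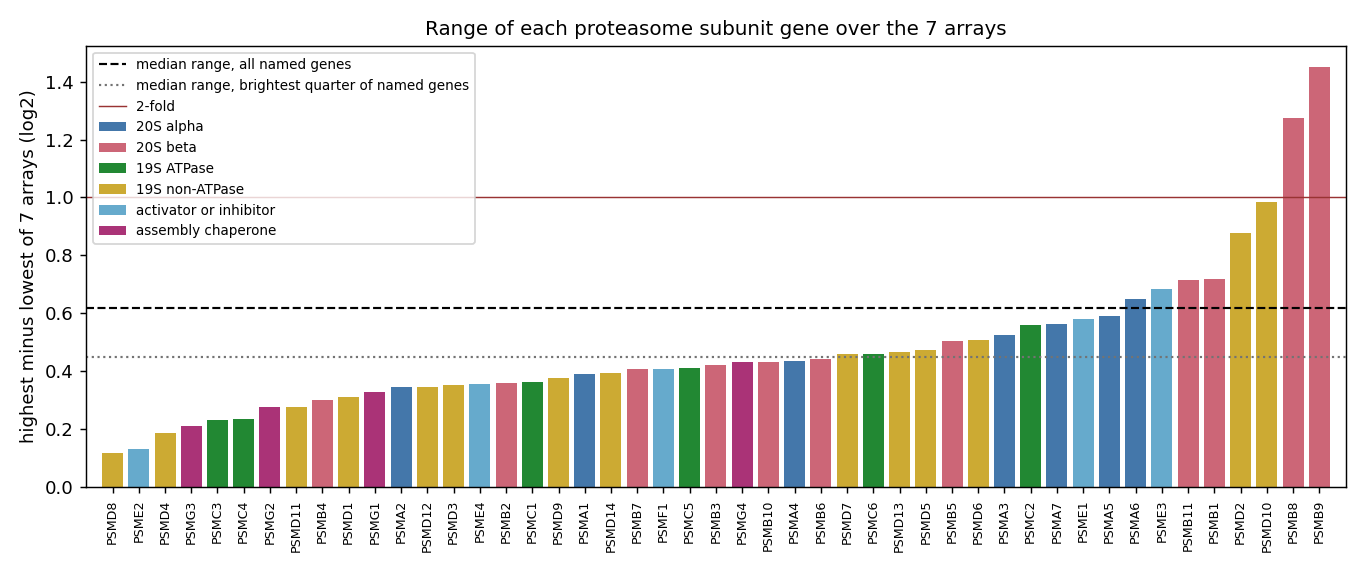
Range of each of the 47 proteasome subunit genes, as the highest minus the lowest of 7 arrays on the log2 scale, coloured by class. PSMB9 (1.45) and PSMB8 (1.27) stand above the line that marks a 2-fold difference, and most bars lie below the median range of all named genes (0.62) drawn as a dashed line.

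The control arrays were set against each other, as neither plasmid carried an shRNA against a human mRNA. No proteasome gene was 2-fold apart between them, whereas the empty-vector array was 2-fold above the other for 11.6% of all named genes and 2-fold below for 0.609%. The SD of the difference between the controls was 0.17 log2 over the 47 genes, 0.53 over all named genes and 0.27 over the 4114 brightest. PSMD2, a scaffold subunit of the cap base, differed most, at 6.50 with empty vector and 6.92 with non-target shRNA.

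The catalytic subunits of the constitutive proteasome are described first. PSMB5, the chymotrypsin-like subunit, was at 4.28 with empty vector, 4.26 with non-target shRNA, 4.22 with PARN shRNA, 4.32 with CNOT6 shRNA, 4.73 with CNOT6L shRNA, 4.70 with CNOT7 shRNA and 4.70 with NOC shRNA. All 3 arrays of slide row 2 were thus above all 4 arrays of row 1, by 0.44 log2 in the means, and the arrays within a row differed by little. PSMB6, the caspase-like subunit, was at 5.05 and 4.96 on the empty-vector and non-target arrays, 5.11 with PARN, 5.40 with CNOT6, 5.23 with CNOT6L, 5.07 with CNOT7 and 5.32 with NOC shRNA. PSMB7, the trypsin-like subunit, was at 4.81 and 4.62 on the same control arrays, 4.73 with PARN, 4.98 with CNOT6, 5.00 with CNOT6L, 4.97 with CNOT7 and 5.03 with NOC shRNA. For PSMB6 the CNOT6 shRNA array was the highest of all and for PSMB7 it was level with row 2. Each shRNA array except that of PARN for PSMB7 was above both controls. The spread between the 2 spots of PSMB6 on an array reached 0.36 log2 (SD), beside a range of 0.44 over the arrays. The order of the arrays is therefore uncertain for PSMB6.

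The immunoproteasome subunits differed more between arrays. PSMB8 was at -0.79 with empty vector, -0.53 with non-target shRNA, -1.25 with PARN shRNA, -0.70 with CNOT6 shRNA, -0.33 with CNOT6L shRNA, -0.14 with CNOT7 shRNA and 0.03 with NOC shRNA. Its spread between the 2 spots of an array was at most 0.08 log2 (SD), so the PARN shRNA array was the lowest and the row 2 arrays the highest by more than the printing error. PSMB9 was at -1.01 and -1.31 on the empty-vector and non-target arrays, -1.90 with PARN, -1.22 with CNOT6, -0.58 with CNOT6L, -0.45 with CNOT7 and -0.49 with NOC shRNA. It followed the same order, lowest upon PARN silencing and highest in row 2, with a spread between spots of at most 0.16 log2 (SD). PSMB10 did not share this pattern. It was at 2.88 and 2.76 on the control arrays, 2.83 with PARN, 3.17 with CNOT6, 3.01 with CNOT6L, 2.95 with CNOT7 and 3.20 with NOC shRNA, a range of 0.43 log2.

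Upon PARN silencing PSMB9 was at 59.7% of the control mean, with a change of -0.89 log2 from empty vector and -0.60 from non-target shRNA. PSMB8 was at 66.7% of the control mean, with changes of -0.45 and -0.72. In row 2 PSMB9 was 1.49-fold, 1.63-fold and 1.59-fold of the control mean with the CNOT6L, CNOT7 and NOC shRNAs, and PSMB8 was 1.26-fold, 1.44-fold and 1.61-fold. At a lower threshold of 1.5-fold from both controls, PSMB9 was the only proteasome gene called lower upon PARN silencing, beside 1.49% of all named genes. It lost that call with normexp background correction. The NOC and PARN shRNA arrays, which lie in different rows, were 2.66-fold apart for PSMB9 and 2.42-fold for PSMB8.

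**Figure D2:**
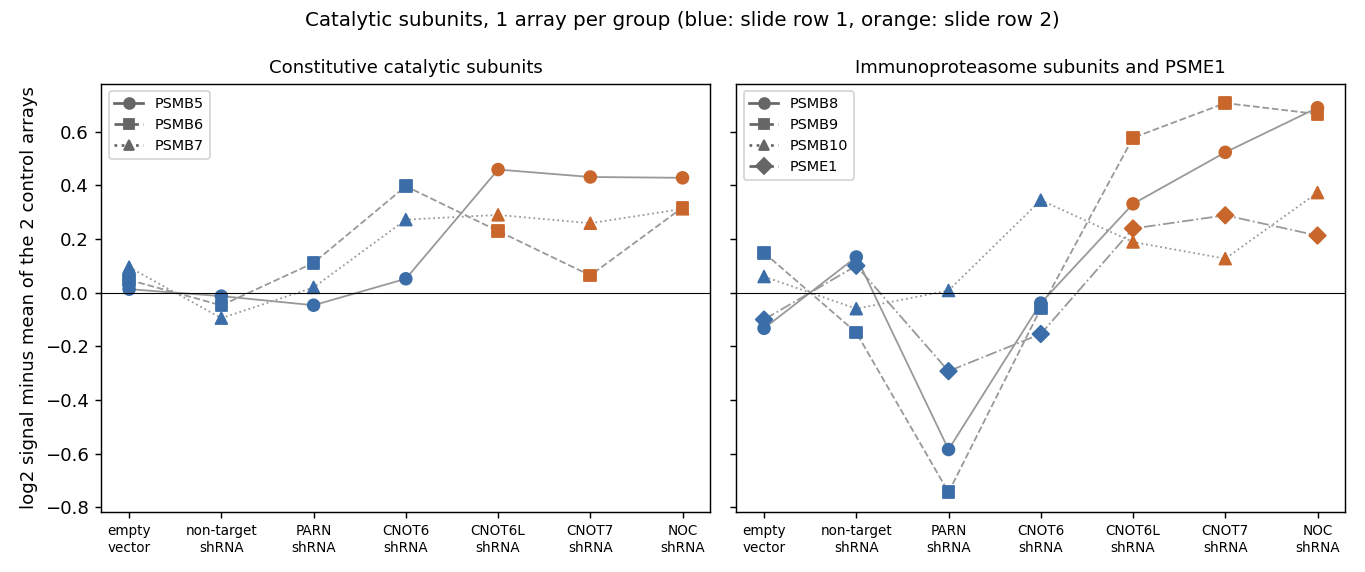
Levels of the constitutive catalytic subunits (left) and of the immunoproteasome subunits with PSME1 (right), as log2 signal minus the mean of both control arrays, with 1 point per array and group. PSMB8 and PSMB9 are lowest with PARN shRNA (-0.58 and -0.74) and highest on the slide row 2 arrays, while the largest change of PSMB5, PSMB6, PSMB7 and PSMB10 is 0.46, for PSMB5 with CNOT6L shRNA.

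The PA28 activator, which opens the core and is known to respond to interferon, gave a split result. PSME1, its alpha subunit, was at -1.12 and -0.92 on the empty-vector and non-target arrays, -1.31 with PARN, -1.17 with CNOT6, -0.78 with CNOT6L, -0.73 with CNOT7 and -0.81 with NOC shRNA, so it had the order of PSMB8 and PSMB9 at a smaller size. PSME2, the beta subunit, stayed between 5.16 and 5.30 on the 7 arrays. PSME3, the nuclear activator PA28 gamma, had the largest range of the activators and inhibitors. It was at 1.45 and 1.78 on the control arrays, 1.56 with PARN, 1.10 with CNOT6, 1.41 with CNOT6L, 1.63 with CNOT7 and 1.37 with NOC shRNA, and the CNOT6 shRNA array was 69.8% of the control mean. PSME4, the activator PA200, was also lowest with CNOT6 shRNA, at 1.23 against 1.39 and 1.59 on the controls. Its fainter probe was instead lowest with CNOT7 shRNA (-1.24, against -1.11 with CNOT6 shRNA). PSMF1, an inhibitor of the core, ranged from 1.35 with PARN shRNA to 1.76 with CNOT7 shRNA. Another PSMF1 probe of similar brightness did not separate these arrays, at 1.41 with both. It was lowest with empty vector (1.31) and highest with CNOT6L shRNA (1.58).

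Since PSMB8, PSMB9 and PSME1 shared an order that PSMB10 and PSME2 did not, their promoters were compared. That order, lowest with PARN shRNA and highest in slide row 2, was not particular to them. PSMA4, PSMA7, PSMB5, PSMC6, PSMD6 and PSMD10 had it too. Windows of 300 bases, from 250 before to 50 after a RefSeq transcript start (GRCh38.p14), were at hand for 42 of the 48 genes, 51 windows in all. The letters GAAANNGAAA, the core of the interferon-stimulated response element, were sought on both strands. They were in 7 of the 51 windows (13.7%), those of PSMA4, PSMB4, PSMB8, PSMB10, PSME1, PSME2 and PSMG4, and in 3.57% of all 35116 windows. The match started at base -21 of PSMB10, -28 of PSME2, -33 of PSMG4, -68 of PSMB4 and -240 of PSMA4, at -4 of PSMB8, where it runs across the start, and at base 6 of the transcript in PSME1. No match was in the PSMB9 window. TAP1, the neighbouring peptide transporter gene that is transcribed away from PSMB9 with 487 bases between the starts, held overlapping matches at -134 and -128. The sequences below are the 150 bases before a start, 5′ to 3′ on the strand of the gene, with the matches in capitals, and that of PSMB8 runs on by 6 bases to the end of its match. PSMB8 and TAP1 each have another annotated start, whose window is not shown.
PSMB8, chr6:32844042-32844197, minus strand: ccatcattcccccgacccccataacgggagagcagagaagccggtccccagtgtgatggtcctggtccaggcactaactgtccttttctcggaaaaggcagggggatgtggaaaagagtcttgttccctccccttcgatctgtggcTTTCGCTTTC
PSMB9, chr6:32854042-32854191, plus strand: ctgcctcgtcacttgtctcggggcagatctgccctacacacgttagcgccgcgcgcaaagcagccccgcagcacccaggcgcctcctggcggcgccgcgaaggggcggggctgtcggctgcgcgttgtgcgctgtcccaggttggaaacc
TAP1, chr6:32853705-32853854, minus strand: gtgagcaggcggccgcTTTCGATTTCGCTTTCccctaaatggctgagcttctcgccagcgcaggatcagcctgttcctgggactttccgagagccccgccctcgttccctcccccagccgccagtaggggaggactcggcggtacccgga
PSMB10, chr16:67936851-67937000, minus strand: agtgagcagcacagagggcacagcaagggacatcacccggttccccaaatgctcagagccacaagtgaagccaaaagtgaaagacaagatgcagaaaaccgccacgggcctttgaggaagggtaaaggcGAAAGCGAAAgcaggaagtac
PSME2, chr14:24146611-24146760, minus strand: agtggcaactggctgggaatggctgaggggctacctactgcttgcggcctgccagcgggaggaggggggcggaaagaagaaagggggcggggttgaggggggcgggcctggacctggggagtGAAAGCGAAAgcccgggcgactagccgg

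These matches are a description of the letters. Among the genes with a match the range over the arrays was 1.27 log2 for PSMB8, 0.58 for PSME1, 0.43 for PSMB10 and 0.13 for PSME2, and PSMB9, with the widest range, had none in its window.

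The class I antigen processing genes, a list of 18 that act downstream of the immunoproteasome, were all above background on all arrays. None was called at 2-fold with any shRNA. In 4 of the 18, TAP1, TAP2, B2M and HLA-E, all row 2 arrays were above all row 1 arrays. That order held for 13.1% of all named genes and for 22.5% of the brightest. For B2M the rows were barely apart. It was at 3.9969 with CNOT6 shRNA (row 1) and at 3.9971 with CNOT6L shRNA (row 2). The PARN shRNA array was the lowest of 7 for 7 of the 18, TAP1, TAPBPL, B2M, HLA-B, HLA-C, HLA-E and HLA-F. It was also the lowest for 3 of the 5 immunoproteasome and PA28 genes, and for 16.0% of all named genes. TAP1 was at 2.16 and 2.08 on the empty-vector and non-target arrays, 1.92 with PARN, 2.32 with CNOT6, 2.38 with CNOT6L, 2.47 with CNOT7 and 2.45 with NOC shRNA. IRF1, a transcription factor of these genes, took the other direction in row 2, at -1.40, -1.47 and -1.21 with the CNOT6L, CNOT7 and NOC shRNAs against -0.60 and -0.80 on the controls. TAP1 and IRF1 were chosen for display after their values were seen. Leukocytes are rich in immunoproteasome, and the 3 leukocyte markers PTPRC, CD3E and CD68 were dim but above background on all arrays. PTPRC was at -3.06 and -3.53 on the controls, -3.55 with PARN, -3.16 with CNOT6, -2.84 with CNOT6L, -3.59 with CNOT7 and -3.71 with NOC shRNA. CD3E was at -4.72 and -5.89 on the controls, -6.18 with PARN, -4.64 with CNOT6, -4.83 with CNOT6L, -5.11 with CNOT7 and -4.97 with NOC shRNA. CD68 was at -2.27 and -4.04 on the controls, -2.15 with PARN, -2.83 with CNOT6, -3.51 with CNOT6L, -3.43 with CNOT7 and -3.22 with NOC shRNA. The PARN shRNA array was thus the lowest for CD3E, the highest for CD68 and neither for PTPRC. The cultures were of a carcinoma line, and what these dim signals stand for was not tested. The summed level of the 3 ran from -2.60 to -1.45 over the arrays, that of 3 endothelial markers from -3.18 to -2.13 and that of 5 fibroblast markers from -2.58 to -2.26, with COL3A1 above background on none.

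Among the genes of the 19S cap PSMD10 had the largest range. It encodes gankyrin, an assembly chaperone of the cap that is also known as an oncoprotein. PSMD10 was at 1.28 with empty vector, 1.23 with non-target shRNA, 1.13 with PARN shRNA, 1.65 with CNOT6 shRNA, 2.05 with CNOT6L shRNA, 2.11 with CNOT7 shRNA and 1.95 with NOC shRNA. The row 2 arrays were above all others, the CNOT6 shRNA array was next, and the PARN shRNA array was below both controls. Against the control mean it was 1.73-fold, 1.81-fold and 1.62-fold with the CNOT6L, CNOT7 and NOC shRNAs. At the 1.5-fold threshold it was the only proteasome gene called higher with each of these, beside 1.54%, 1.2% and 1.57% of all named genes. PSMB9 joined it with CNOT7 shRNA under quantile normalization, in the deposited table of log2 values and when the 75th percentile was taken over probes above background. A fainter PSMD10 probe gave changes of 0.63, 0.72 and 0.81 log2 from the control mean on the same arrays, and 0.32 with CNOT6 shRNA. Against the other arrays of their own row, the differences were 0.02, 0.12 and -0.13 log2. The 150 bases before its start hold no interferon-type match and 1 CCAAT box, the letters CCAAT on either strand, in capitals here. That box was in 39.2% of the proteasome windows and 34.6% of all windows.
PSMD10, chrX:108091543-108091692, minus strand: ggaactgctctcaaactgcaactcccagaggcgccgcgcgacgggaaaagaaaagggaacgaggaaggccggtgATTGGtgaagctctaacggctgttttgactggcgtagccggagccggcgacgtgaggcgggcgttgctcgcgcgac

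PSMD6 and PSMD7 are cap subunits printed on 10 spots per array. PSMD6 was at 3.46 and 3.42 on the empty-vector and non-target arrays, 3.35 with PARN, 3.57 with CNOT6, 3.85 with CNOT6L, 3.86 with CNOT7 and 3.76 with NOC shRNA. Its lowest row 2 spot (3.68) was above the highest spot in row 1 (3.67), where the CNOT6 shRNA array lay highest. PSMD7 was at 4.60 and 4.68 on the controls, 4.64 with PARN, 4.86 with CNOT6, 5.05 with CNOT6L, 4.60 with CNOT7 and 5.06 with NOC shRNA. Here the CNOT7 shRNA array stayed at the level of the controls while its row mates were higher, with no overlap between their spots (highest 4.69 with CNOT7, lowest 4.97 with CNOT6L). The CNOT7 shRNA array was thus 0.46 log2 below the mean of its row mates for PSMD7. None of the proteasome genes differed 2-fold from both row mates with any of the 3 shRNAs. Among all named genes 0.577%, 0.213% and 0.196% were higher than both mates with the CNOT6L, CNOT7 and NOC shRNAs, and 0.106%, 0.0672% and 0.174% were lower.

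**Figure D3:**
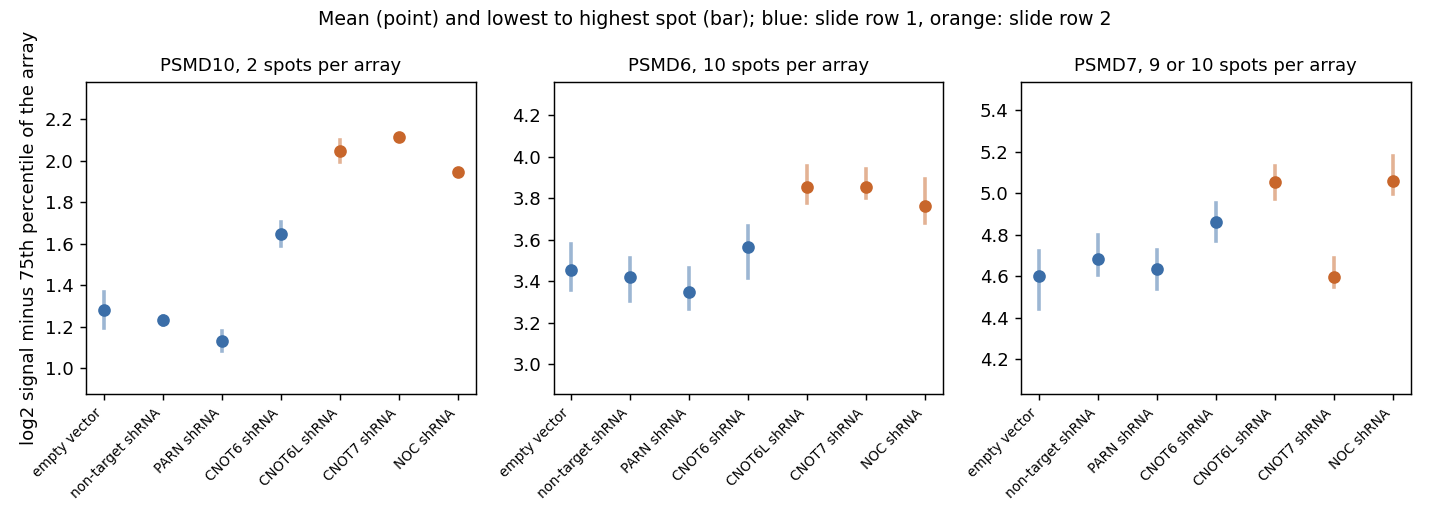
Levels of PSMD10, PSMD6 and PSMD7 on each array, as log2 signal minus the 75th percentile of the array, with the mean of the spots as a point and the lowest to highest spot as a bar. PSMD10 and PSMD6 are highest on all 3 slide row 2 arrays, whereas PSMD7 with CNOT7 shRNA (4.60) lies with the controls.

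In the remaining classes the widest ranges were smaller. PSMA6, an alpha subunit, was at 4.78 and 4.50 on the empty-vector and non-target arrays, 4.73 with PARN, 5.16 with CNOT6, 5.01 with CNOT6L, 4.87 with CNOT7 and 4.99 with NOC shRNA. PSMC2, an ATPase of the cap ring, was at 4.30 and 4.26 on the controls, 4.16 with PARN, 4.72 with CNOT6, 4.33 with CNOT6L, 4.23 with CNOT7 and 4.31 with NOC shRNA. Both were highest with CNOT6 shRNA, and PSMC2 stood apart from its other values only there. PSMG4, an assembly chaperone of the core, ran from 1.83 with CNOT7 shRNA to 2.26 with CNOT6L shRNA, with the controls, PARN, CNOT6 and NOC shRNA between them. PSMB11, the thymus-specific beta subunit, was above background on all arrays but dim, between -5.95 with PARN shRNA and -5.24 with CNOT6L shRNA, and its 2 probes differed by up to 0.84 log2 in their changes. For the 13 genes with more than 1 probe, the largest such gaps elsewhere were 0.59 for PSMD9 and 0.53 for PSMD2.

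Across the 47 genes, the median change from the control mean was above 0 with 4 of the 5 shRNAs. The median log2 change was -0.04 with PARN shRNA, 0.13 with CNOT6 shRNA, 0.16 with CNOT6L shRNA, 0.06 with CNOT7 shRNA and 0.12 with NOC shRNA. The medians of all named genes above background were -0.01, 0.03, -0.00, -0.03 and -0.02 on the same arrays, and those of the 4114 brightest 0.00, 0.05, 0.08, 0.05 and 0.07. Without scaling between arrays the CNOT6 shRNA median was -0.88 while that of all probes above background was -0.90, so its direction holds only relative to the other genes of the array. With quantile normalization the medians were -0.05 with PARN, 0.0054 with CNOT6, 0.08 with CNOT6L, 0.04 with CNOT7 and 0.05 with NOC shRNA, and 24 of the 47 genes were then above the control mean with CNOT6 shRNA. With normexp background correction the CNOT6 shRNA median of 0.10 lay below that of all probes above background (0.26). Higher than both controls were 30 genes with CNOT6 shRNA (35.5% of all named genes), 32 with CNOT6L shRNA (32.7%), 22 with CNOT7 shRNA (30.9%) and 28 with NOC shRNA (31.4%). As shares of the 47 genes these were 63.8%, 68.1%, 46.8% and 59.6%. The shares among the 4114 brightest were 41.9%, 47.2%, 44.6% and 47.1%, so the CNOT7 shRNA count was near that of other bright genes. Upon PARN silencing 6 genes were above both controls (23.5% of all named genes) and 20 below both (31.8%). Among the 4114 brightest these shares were 27.2% and 30.7%. As these comparisons share the 2 control arrays, they are not independent of each other.

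**Figure D4:**
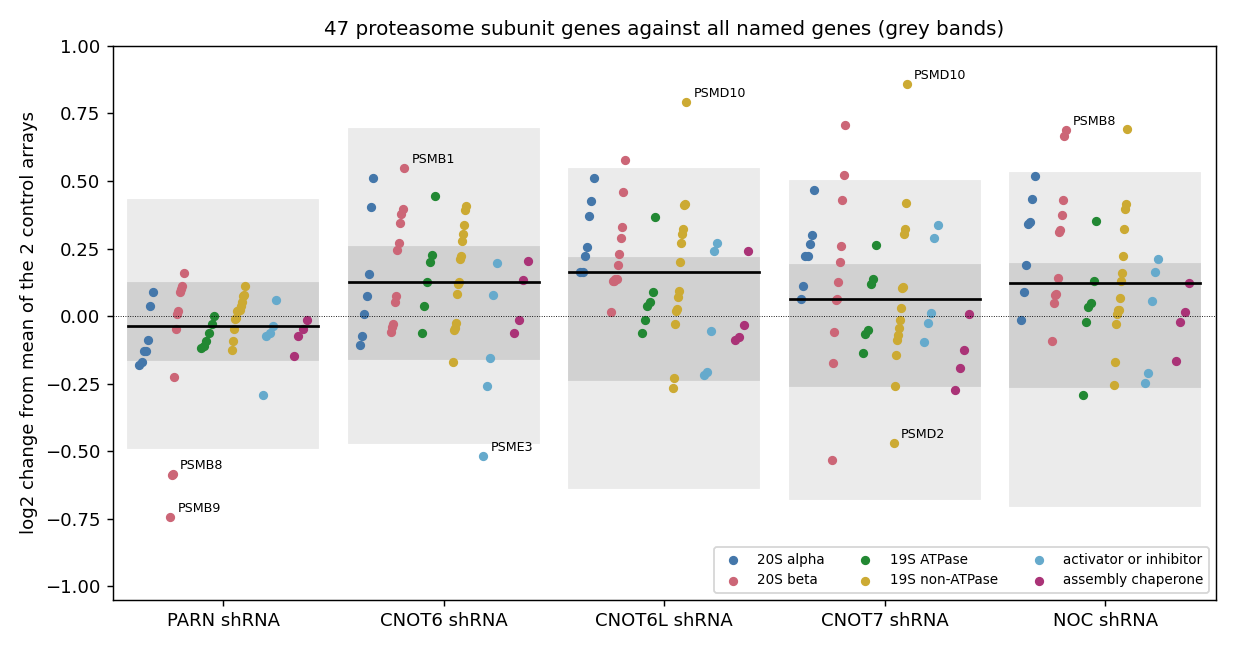
Log2 change of each of the 47 proteasome subunit genes from the mean of the 2 control arrays, for the 5 shRNA arrays, with 1 point per gene coloured by class and the median as a black line. The dark and light grey bands hold the central 50% and 90% of the 16456 named genes, and the genes outside the bands are PSMB8, PSMB9 and PSMB11 below them with PARN shRNA, PSME3 below with CNOT6 shRNA, PSMD10 and PSMB9 above with CNOT6L, CNOT7 and NOC shRNA, and PSMB8 above with CNOT7 and NOC shRNA.

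By array, CNOT6 shRNA gave the highest of the 7 values for 16 proteasome genes (21.8% of all named genes), among them PSMB1, PSMB6, PSMC1, PSMC2, PSMD1 and PSMD14. PSMB1, a core subunit without proteolytic activity, was at 6.76 there and between 6.04 and 6.31 on the other arrays, but its fainter probe did not set the CNOT6 shRNA array apart from row 2. The PARN shRNA array was the highest for none (11.2% of all named genes) and the lowest for 15 (16.0%), which were the alpha subunits PSMA2, PSMA4 and PSMA7, the beta subunits PSMB2, PSMB5, PSMB8, PSMB9 and PSMB11, the ATPases PSMC2, PSMC4 and PSMC6, and PSMD6, PSMD10, PSME1 and PSMF1. Outside PSMB8, PSMB9, PSMB11 and PSME1, the largest of these changes from the control mean was -0.22 log2, for PSMB2.

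All row 2 arrays were above all row 1 arrays for 12 of the 47 genes, beside 13.1% of all named genes and 22.5% of the 4114 brightest. They were PSMA3, PSMA4, PSMA5 and PSMA7 of the alpha ring, PSMB5, PSMB8 and PSMB9, the ATPase PSMC6, the PSMD genes PSMD5, PSMD6 and PSMD10, and PSME1. The reverse held for PSMD2 and PSMD9, beside 15.3% of all named genes. The fainter PSMD2 probe was between 3.98 and 4.31 on all arrays with no such order. The fainter PSMD9 probe did not keep it either, with CNOT6 shRNA at -4.33 below NOC shRNA at -4.12. Nor did the fainter PSMD5 probe place row 2 above row 1. It was at -1.15, -1.27 and -1.24 with the CNOT6L, CNOT7 and NOC shRNAs and at -1.01 with CNOT6 shRNA. PSMA5, with the largest difference between row means among the alpha subunits (0.39 log2), was at 4.30 and 4.45 on the empty-vector and non-target arrays, 4.41 with PARN, 4.78 with CNOT6, 4.89 with CNOT6L, 4.84 with CNOT7 and 4.89 with NOC shRNA. Row 2 also differed from row 1 in the shRNAs it held, so slide position and shRNA cannot be told apart in these differences.

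The 5 shRNA arrays were compared with both control arrays by limma, with the spread taken among the different shRNAs and among the different control plasmids. No proteasome gene passed a Benjamini-Hochberg adjusted p of 0.05 (smallest 1.0), nor did any of the 38084 probes tested (0% called, smallest adjusted p 0.475). At an unadjusted p under 0.05 there were 2 proteasome genes, beside 3.75% of all probes. They were PSMA5, at 0.39 log2 above the controls (SE 0.15), and PSMD13, a cap subunit, at 0.30 above (SE 0.12), both with a limma adjusted p of 1.0. With slide row as a term in the limma fit neither had an unadjusted p under 0.05, PSMB3, a core subunit, was the 1 proteasome gene that did, and none passed the adjustment (smallest adjusted p 0.925). PSMD10 was at 0.52 above (SE 0.24), with a limma adjusted p of 1.0. As the RNA came from whole cultures, a change in mRNA per cell and a change in the mix of cells cannot be told apart.

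Partners of the proteasome outside the PSM nomenclature were examined by the same rule. Of 27 accessory genes, which included ubiquitin receptors, shuttle factors, deubiquitinases, ubiquitin genes and ubiquitin-activating enzymes, 25 were named on the array and all were above background. None was called at 2-fold with any shRNA. Of the 6 genes around NFE2L1, none was called at 2-fold. NFE2L1 itself stayed between 2.91 and 3.17, and NFE2L2 was not above background on any array. DDI2, the protease that activates NFE2L1, was the only one called at 1.5-fold, at -3.01 with CNOT6L shRNA against -2.03 and -2.39 on the controls. With that shRNA 2.91% of all named genes were called lower at 1.5-fold. The letters TGACNNNGC, the core of the antioxidant response element to which NFE2L1 and NFE2L2 bind, were in 15 of the 51 proteasome windows (29.4%) and in 13.3% of all windows. Other motifs were also more frequent in the proteasome windows. The ETS site, CCGGAA, was in 22 of them (43.1%) and in 17.2% of all windows. The gamma-interferon activated site, TTCNNNGAA, was in 8 (15.7%) and in 7.66% of all windows.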

How the data were processed

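RNA of 7 NCI-H520 cultures was hybridised to 1 single-colour array each. Scanner files deposited by the authors came from Agilent Feature Extraction 10.7.3.1, per the file headers, and hold a processed, a median and a background intensity per spot. The authors also deposited a table of log2 values, with each probe's median over the 7 arrays removed. Its differences between arrays matched those from the scanner files within 0.02 log2, apart from 1 shift per array, at 100% of probes above background on all arrays. Its scale is therefore log2 and its direction that of the signal, while how the shift per array was chosen stays unknown. Column medians ran from -0.02 to 0.09.

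Here, each array's log2 processed signal was centred on its 75th percentile, without control and outlier spots, and spots of 1 probe were averaged. A probe was above background where at least 50% of its spots were marked so. Of the 42405 gene probes, 24826 were named through a RefSeq table (GRCh38.p14), used for names, while promoters came from RefSeq of the same build. For a gene with several probes, that with the highest mean signal was used. Calls needed a 2-fold difference from both controls, with a dimmer side below background set to a bound. limma 3.58.1 in R 4.3.3 (lmFit, eBayes with trend, two-sided, Benjamini-Hochberg at 0.05) was run on probes that at least 2 arrays had above background, and was tested on simulated data. Genes shown on every array were the catalytic subunits, the gene with the largest range per class and genes called. All leukocyte markers named on the array were shown as well. Others (PSME1, PSMD6, PSMD7, PSMA5, TAP1, DDI2 and IRF1) were added after their values were seen. The members and lists were chosen with earlier results of these data known. Alternatives covered scaling, background correction, outlier spots, probe choice, each control alone and thresholds of 1.5-fold and 4-fold. Also run were limma with a lone shRNA array, without trend, without the filter, with slide row as a term and without each array.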

Additional observations from a re-analysis of the deposited data

How the results depend on the processing

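No paired analysis was possible because each group had 1 array. Without scaling between arrays, the median change of the proteasome genes was -0.37 with PARN, -0.88 with CNOT6, 0.56 with CNOT6L, 0.60 with CNOT7 and 0.34 with NOC shRNA, while all probes above background had medians of -0.33, -0.90, 0.38, 0.46 and 0.16. Unscaled 2-fold counts against both controls were 3 lower with CNOT6 and 1 higher with CNOT7 shRNA. Against row mates, the unscaled medians were 0.17 for CNOT7 and -0.22 for NOC shRNA. These shifts follow from the omitted scaling of arrays that differ in brightness. At 1.5-fold there was 1 lower call with PARN and 1 higher call each with CNOT6L, CNOT7 and NOC shRNA, against 0 at 2-fold. The PSMD10 calls at 1.5-fold were kept in every setting run, and the PSMB9 call upon PARN silencing in all but normexp background correction, where the cause was not tested. With quantile normalization the CNOT6 shRNA median came to 0.0054, from 0.13. Of the remaining summary values, 120 stayed within the spread between the controls (0.12 log2) or at the same count. Changes of single named genes held less well: 392 stayed within that gene's spread between the controls and 133 moved beyond it. Some changed direction, as PSMB5 with CNOT6 shRNA and PSMC2 with CNOT6L shRNA did under quantile normalization. With limma, 0 proteasome genes passed in the fits without 1 shRNA array. In these fits 0 to 9 had an unadjusted p under 0.05, the most without the PARN shRNA array. Without that array 3675 of all 38084 probes had such a p, against 1427 in the main fit. Over all probes 61 passed when empty vector was left out and 1 when non-target shRNA was. For PSMD2 the change with CNOT6 shRNA was -0.13 with quantile normalization in place of 0.41. The signal of PSMA8, below background on all arrays, allows no comparison.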
